A study of Homo sapiens with 36 samples.

Results

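The miR-23/27/24 microRNAs (miRNAs) are encoded in 2 clusters of the human genome, miR-23a/27a/24-2 on chromosome 19 and miR-23b/27b/24-1 on chromosome 9, and their 5p arms were examined in 7 aneuploid cell lines. The members were chosen by name. They are 3 mature miRNAs of chromosome 19 (hsa-miR-23a-5p, hsa-miR-27a-5p and hsa-miR-24-2-5p) and 4 of chromosome 9 (hsa-miR-23b-5p, hsa-miR-27b-5p, hsa-miR-24-1-5p and hsa-miR-3074-5p), 7 of the 509 names listed over all lines. The chromosome 9 members hsa-miR-23b-5p, hsa-miR-27b-5p and hsa-miR-24-1-5p were all lower in HCT116 18/3 c2 and in RPE1 5/3 12/3, by log2 fold changes of -1.22 to -0.70, and all higher in RPE1* 7/3, by 0.66 to 1.10. The chromosome 19 members passed the same test in only 2 lines, hsa-miR-27a-5p and hsa-miR-24-2-5p in HCT116 5/4 and hsa-miR-27a-5p in RPE1 5/3 12/3, with log2 fold changes of 0.75 to 1.31. Each comparison is of 3 libraries against 3. HCT116 18/3 c2 was compared with control cells that express H2B-GFP, which the line itself does not.

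A miRNA cluster is transcribed as 1 long primary RNA, from which the enzymes Drosha and Dicer cut 1 hairpin for each miRNA and then a short duplex with a 5p and a 3p arm. One arm is loaded into an Argonaute protein and pairs with target mRNAs mainly through its seed, bases 2 to 8. The clusters arose by duplication of an ancestral one, and their 3p arms, usually the more abundant arms, are known from work on blood vessel growth, fat cell differentiation and blood cell development. The tables list 12 names that end in 3p and 333 that end in 5p, and 0 of the 5 3p arms of these clusters are among them, so every value below is one of a 5p arm.

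Small RNA libraries of 12 groups, 3 per group and 36 in all, compared lines that carry extra chromosomes with cells that do not. HCT116 is a near-diploid colon carcinoma line, RPE1 a near-diploid line of retinal pigment epithelium immortalised with hTERT, and an asterisk marks cells that stably express histone H2B fused to GFP. The number before the slash is the gained chromosome and the number after it the copies, so chromosome 5 is present 4 times in HCT116 5/4, and both chromosome 5 and chromosome 12 are present 3 times in RPE1 5/3 12/3. HCT116 also gave HCT116 18/3 c2 and the H2B-GFP lines HCT116* 8/3 c7 and HCT116* 3/3 c11, with c for the clone, and RPE1* gave RPE1* 21/3 and RPE1* 7/3. Each is a single line. The controls were HCT116 for HCT116 5/4, HCT116* for the other 3 lines of HCT116, RPE1 for RPE1 5/3 12/3, the RPE1* libraries numbered 11 to 13 for RPE1* 7/3 and those numbered 1 to 3 for RPE1* 21/3. HCT116 18/3 c2 was made from HCT116 without H2B-GFP and yet compared with HCT116*. In the study's list of cell lines HCT116 came from another laboratory and HCT116* from a stock of the American Type Culture Collection. Its methods text names that collection for HCT116 too. The chromosome gain, the H2B-GFP difference and any difference of stock cannot be told apart there. Per the methods of the study HCT116 5/4 came from another laboratory and the other lines were made by microcell transfer of a chromosome. RPE1 5/3 12/3 gained chromosome 12 spontaneously, and in RPE1* 7/3 chromosomes 9 and 12 were gained in this way as well. None of the named gains is of chromosome 19, and RPE1* 7/3 is the one line described with an extra chromosome 9.

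The mature sequences show how alike the members are and which could share target mRNAs. They are given 5′ to 3′ as in the RefSeq table, with the seed in capitals.
hsa-miR-23a-5p: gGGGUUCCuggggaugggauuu
hsa-miR-23b-5p: uGGGUUCCuggcaugcugauuu
hsa-miR-27a-5p: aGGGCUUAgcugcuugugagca
hsa-miR-27b-5p: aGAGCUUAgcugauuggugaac
hsa-miR-24-2-5p: uGCCUACUgagcugaaacacag
hsa-miR-24-1-5p: uGCCUACUgagcugauaucagu
hsa-miR-3074-5p: gUUCCUGCugaacugagccag
The miR-23 arms have 1 seed in common and so do the miR-24 arms, whereas the miR-27 arms differ within the seed by G3A, counted from 1 at the 5′ end and written with the base of hsa-miR-27a-5p first. By position, 15 of 22 bases are the same in the miR-23 pair, 14 of 22 in the miR-27 pair and 16 of 22 in the miR-24 pair. The longest run of bases in common is 10, 9 and 15 bases, so a full-length read tells the arms of each pair apart. The methods of the study set a minimum read length above the longest of these runs. The remaining member, hsa-miR-3074-5p, has a seed of its own.

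On GRCh37, the build of the mapping, the chromosome 19 hairpins lie on the minus strand within 373 bases, MIR23A from 13947401 to 13947473, MIR27A from 13947254 to 13947331 and MIR24-2 from 13947101 to 13947173. All 3 lie in an exon of the single annotated transcript of the long non-coding RNA gene MIR23AHG. On chromosome 9 the cluster covers 887 bases within AOPEP, a protein coding gene of the plus strand whose product is an aminopeptidase. MIR23B, from 97847490 to 97847586, and MIR27B, from 97847727 to 97847823, are intronic in all 7 annotated transcripts. MIR24-1, from 97848303 to 97848370, is intronic in all but 1 of them, where it overlaps an exon. MIR3074, from 97848296 to 97848376, lies on the opposite strand of the same DNA and has all 68 bases of the MIR24-1 hairpin in common with it. The arm hsa-miR-3074-5p is antisense to 20 bases of hsa-miR-24-3p and shares 0 positions with hsa-miR-24-1-5p. Its reads therefore come from the other strand and do not overlap those of hsa-miR-24-1-5p.

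In abundance the members fell into separate tiers, as the plot of levels per table shows. Levels are the mean normalised read count over the 6 libraries of a table in the authors' deposited tables, given here per 1000000 counts (CPM) of the summed mean of that table, and they include line and control. The chromosome 19 arm hsa-miR-27a-5p ranged from 154 to 281 CPM over the 7 tables and hsa-miR-24-2-5p from 149 to 249 CPM. Their cluster partner hsa-miR-23a-5p was listed in 6 tables at 0.648 to 1.49 CPM, and hsa-miR-27a-5p lay more than 100-fold above it in each of them. On chromosome 9, hsa-miR-27b-5p ranged from 15.9 to 42.2 CPM, hsa-miR-24-1-5p from 6.56 to 75.0, hsa-miR-23b-5p from 3.41 to 27.8 and hsa-miR-3074-5p, in 6 tables, from 0.846 to 4.13 CPM.

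**Figure D1:**
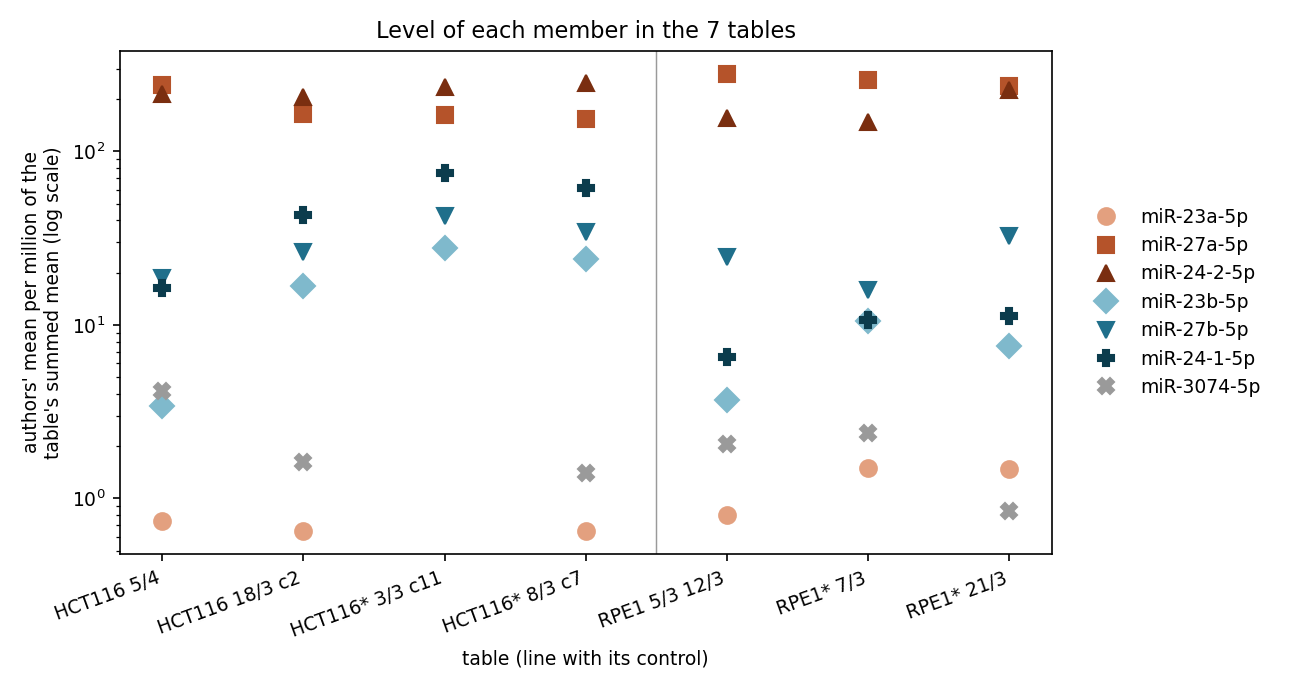
Level of each of the 7 members in the 7 tables, as the mean normalised read count over the 6 libraries of a table in CPM of the summed mean (log axis); HCT116 tables are left of the vertical line and RPE1 tables right of it. The arms hsa-miR-27a-5p and hsa-miR-24-2-5p stand highest in every table, between 149 and 281 CPM, and hsa-miR-23a-5p never exceeds 1.49 CPM.

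The arms of chromosome 19 were the more abundant ones of the miR-27 and miR-24 pairs in all 7 tables, and the miR-23 pair had the opposite order. By the means, hsa-miR-27a-5p was 3.84-fold (HCT116* 3/3 c11) to 16.2-fold (RPE1* 7/3) above hsa-miR-27b-5p. For hsa-miR-24-2-5p over hsa-miR-24-1-5p the ratio was 3.13 in HCT116* 3/3 c11 and 23.8 in RPE1 5/3 12/3, the extremes of the 7 tables. Between parental lines hsa-miR-24-1-5p had a median of 52.1 CPM over the 4 HCT116 tables and 10.7 over the 3 RPE1 tables. For hsa-miR-23b-5p the medians were 20.3 and 7.56 CPM. Not every HCT116 table was high, since in that of HCT116 5/4 hsa-miR-23b-5p stood at 3.41 and hsa-miR-24-1-5p at 16.3 CPM. The other 3 HCT116 tables share the HCT116* control libraries, so the HCT116 medians mainly describe HCT116* and the lines compared with it. Worked out from mean and fold change, the control level of hsa-miR-24-1-5p was 81.0 normalised counts in HCT116 and 423 to 514 in HCT116*. For hsa-miR-23b-5p it was 13.4 in HCT116 and 178 to 219 in HCT116*. The tables were normalised separately and hold no values of single libraries, so these levels are a description without a test. They also cannot tell a lower level per cell from fewer cells with the miRNA.

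Changes were tested line by line. Members with a mean normalised count of 10 or more were tested, and a member was called at an adjusted p under 0.05 (DESeq2 fold change and standard error, Wald test, Benjamini-Hochberg over all miRNAs of the table) with an absolute log2 fold change, line over control, of at least 0.6. Of 49 possible values 47 were listed and 42 tested, and 13 were called, 7 higher and 6 lower. Of all tested values in the same 7 tables, a share of 17.3% was called, 10.1% higher and 7.27% lower. Chromosome 9 members gave 10 calls among 26 tested values and chromosome 19 members 3 among 16, and 2 members, hsa-miR-23a-5p and hsa-miR-3074-5p, were called in 0 lines. Without the fold limit 17 values were below the adjusted p. A test that uses a t distribution with the 4 or 2 residual degrees of freedom of each comparison calls 0 of the 42, and a Wald test of whether the change exceeds 0.6 in size calls 1, hsa-miR-27a-5p in HCT116 5/4. The plot of fold changes gives all 47 values.

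**Figure D2:**
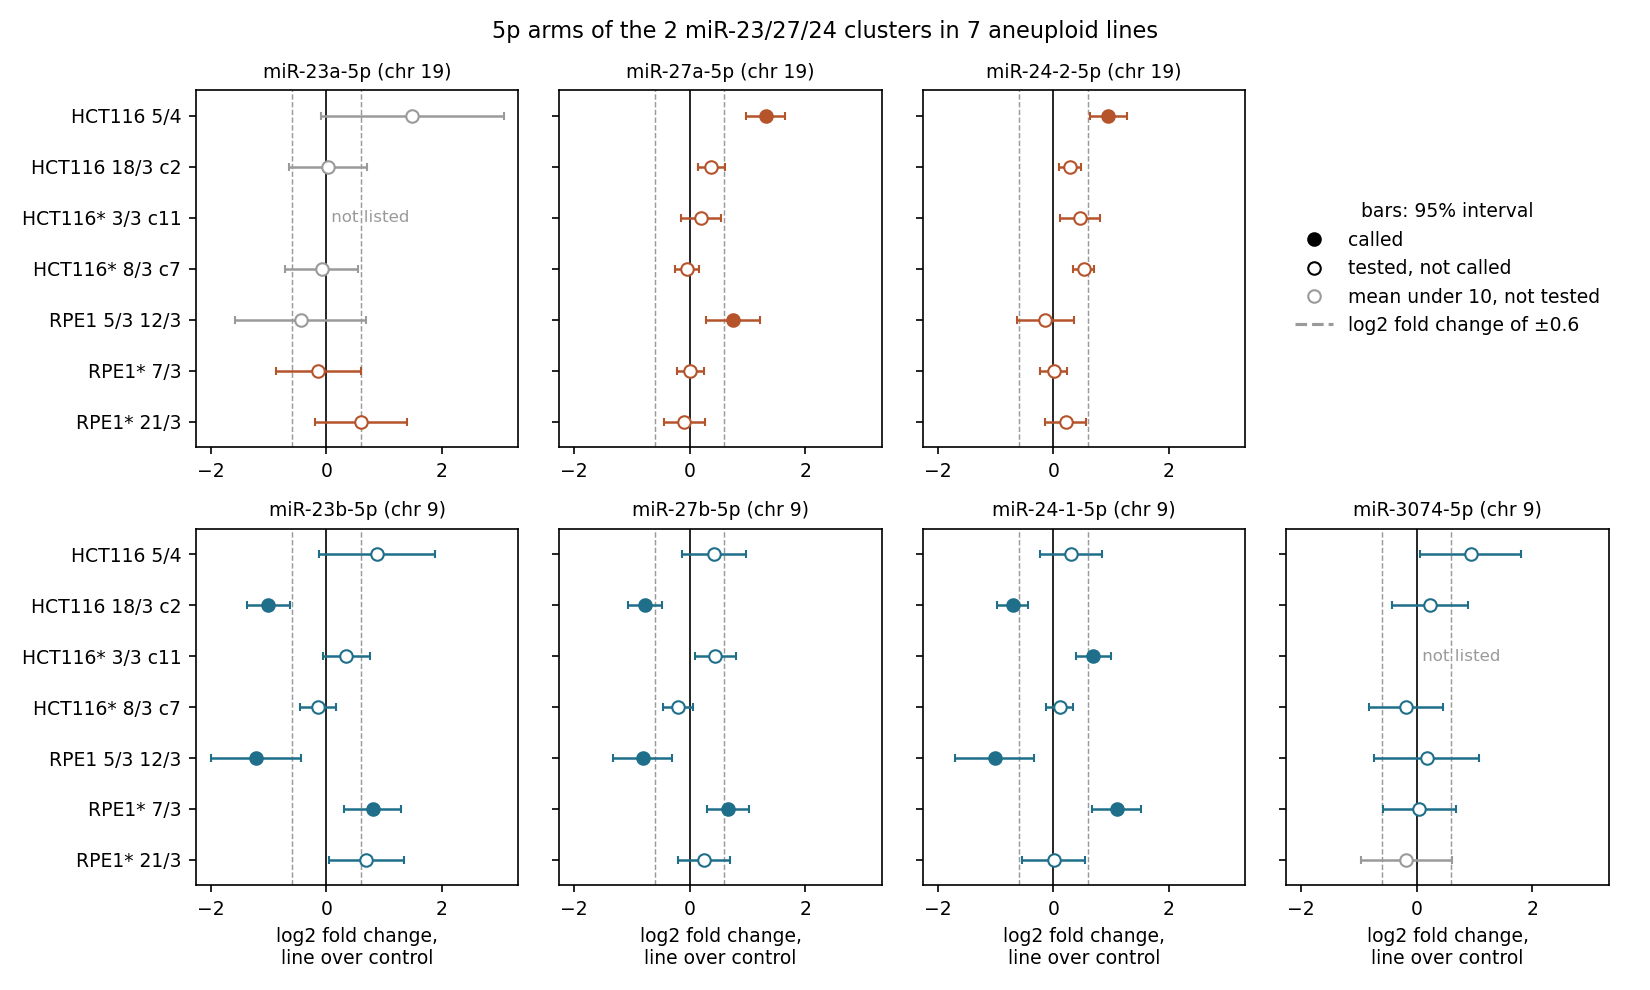
Log2 fold change of line over control for each member (panels) in the 7 lines (rows), with 95% intervals from the listed standard errors; filled points were called, open coloured points were tested and not called, grey points had a mean under 10, and dashed lines mark ±0.6. The 3 abundant chromosome 9 arms lie together left of 0 in HCT116 18/3 c2 and RPE1 5/3 12/3 and right of it in RPE1* 7/3.

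The arm hsa-miR-27a-5p, from the middle hairpin of the chromosome 19 cluster, had the largest called change of that cluster. In HCT116 5/4 its level, worked out from mean and fold change, was 772 normalised counts in the control and 1918 in the line, a log2 fold change of 1.31 (SE 0.17, adjusted p 2.56e-13). In RPE1 5/3 12/3 the levels were 1911 and 3207, a log2 fold change of 0.75 (SE 0.24, adjusted p 0.0104). These were its only calls among 7 lines. In HCT116 18/3 c2 the fold change was 0.38 (SE 0.12, adjusted p 0.00773), below the fold limit, and in the other 4 lines it lay between -0.10 and 0.20.

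Its neighbour hsa-miR-24-2-5p, from the 3′ hairpin of the same transcript, was called in 1 line. In HCT116 5/4 it had 811 normalised counts in the control and 1569 in the line, with a log2 fold change of 0.95 (SE 0.16, adjusted p 9.16e-08). Both tested chromosome 19 members were thus higher in HCT116 5/4, where 18.5% of all tested miRNAs were called higher and 27.7% in either direction. Over both clusters it was 2 of 6 tested members, a share close to the latter. Below the fold limit, the other 3 HCT116 lines had adjusted p under the threshold as well, at 0.53 in HCT116* 8/3 c7 (SE 0.09, adjusted p 1.35e-07), 0.46 in HCT116* 3/3 c11 (SE 0.17, adjusted p 0.0451) and 0.29 in HCT116 18/3 c2 (SE 0.10, adjusted p 0.0189). These 3 lines share the HCT116* libraries. In RPE1 lines the fold change of hsa-miR-24-2-5p was -0.14 in RPE1 5/3 12/3, 0.01 in RPE1* 7/3 and 0.22 in RPE1* 21/3, with standard errors of 0.25, 0.12 and 0.18.

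Too few reads came from hsa-miR-23a-5p, the first arm of that transcript, for a test in most lines. Its mean reached 10 in RPE1* 7/3, with a log2 fold change of -0.14 (SE 0.38), and in RPE1* 21/3, with 0.60 (SE 0.40, adjusted p 0.466). In HCT116 5/4 it was listed at a mean of 4.11 with a log2 fold change of 1.49 and an SE of 0.81. Its interval there, -0.10 to 3.07, covers no change as well as the change of hsa-miR-27a-5p.

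In HCT116 18/3 c2 the 3 abundant arms of the chromosome 9 cluster were lower by similar amounts. For hsa-miR-23b-5p, the first hairpin, the level was 178 normalised counts in the control and 89.0 in the line, a log2 fold change of -1.0 (SE 0.19, adjusted p 1.70e-06). The middle arm hsa-miR-27b-5p had 263 and 154 counts, a log2 fold change of -0.77 (SE 0.15, adjusted p 2.74e-06). At the 3′ end hsa-miR-24-1-5p had 423 and 259 counts, a log2 fold change of -0.70 (SE 0.14, adjusted p 3.28e-06). The antisense member hsa-miR-3074-5p stood at 0.23 (SE 0.33) and was not called. Of 6 members tested, 3 were lower, beside 9.29% of all tested miRNAs called lower and 18.2% called in either direction in this line. Among the 3 lines on the same HCT116* control, this was the only one with a lower call for a member. It was also the only one made from cells without H2B-GFP, so the gain and the choice of control cannot be told apart. In the HCT116 control of HCT116 5/4, normalised separately, the levels were 13.4 for hsa-miR-23b-5p, 89.2 for hsa-miR-27b-5p and 81.0 for hsa-miR-24-1-5p. Whether the control accounts for the lower values was not tested.

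RPE1 5/3 12/3 showed the same arms lower, with wider errors. There hsa-miR-23b-5p had 46.9 normalised counts in the control and 20.2 in the line, a log2 fold change of -1.22 (SE 0.40, adjusted p 0.0135). The values were 287 and 163 counts for hsa-miR-27b-5p, with a log2 fold change of -0.82 (SE 0.26, adjusted p 0.00956). They were 79.9 and 39.6 counts for hsa-miR-24-1-5p, with -1.01 (SE 0.35, adjusted p 0.0199). With hsa-miR-27a-5p higher and these 3 lower, 4 of 6 tested members were called, beside 30.4% of all tested miRNAs, 16.9% higher and 13.5% lower. The call for hsa-miR-23b-5p and that for hsa-miR-24-1-5p rest on means of 33.5 and 59.8.

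The direction was opposite in RPE1* 7/3, the line with an extra chromosome 9. Here hsa-miR-24-1-5p rose from 76.3 normalised counts in the control to 163 in the line, a log2 fold change of 1.10 (SE 0.22, adjusted p 1.02e-05). The first hairpin's arm hsa-miR-23b-5p rose from 85.8 to 150.1 counts, with 0.81 (SE 0.25, adjusted p 0.0118), and hsa-miR-27b-5p from 138 to 219 counts, with 0.66 (SE 0.19, adjusted p 0.00402). On the log2 scale, 3 copies in place of 2 correspond to 0.58, which lies inside the 95% intervals of hsa-miR-23b-5p and hsa-miR-27b-5p and under that of hsa-miR-24-1-5p (0.67 to 1.53). The part of copy number was not tested, and in this line the gains of chromosomes 7, 9 and 12 cannot be told apart. The opposite strand did not give the same value, as hsa-miR-3074-5p stood at 0.04 (SE 0.32, interval -0.59 to 0.67), an interval that also includes 0.58. Of 7 members tested 3 were higher, beside 7.29% of all tested miRNAs called higher and 13% called in either direction, while the 3 chromosome 19 members lay between -0.14 and 0.01.

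Fewer calls were made in the remaining lines. In HCT116* 3/3 c11, hsa-miR-24-1-5p was higher, with 514 normalised counts in the control, 828 in the line and a log2 fold change of 0.69 (SE 0.15, adjusted p 0.000209). That was 1 of 5 tested members, beside 6.09% of all tested miRNAs called higher and 9.68% in either direction. The fold changes of hsa-miR-27b-5p, 0.45 (SE 0.18, adjusted p 0.0617), and hsa-miR-23b-5p, 0.35 (SE 0.21, adjusted p 0.237), did not pass the test. In HCT116* 8/3 c7, 0 of 6 tested members were called (15.0% of all tested miRNAs), and the chromosome 9 arms lay between -0.20 and 0.11. In RPE1* 21/3 it was 0 of 6 (8.66%), with hsa-miR-23b-5p at 0.70 (SE 0.33, adjusted p 0.225). No chromosome 9 member was called in HCT116 5/4 either, where all 4 had fold changes above 0, from 0.31 (SE 0.27) for hsa-miR-24-1-5p to 0.93 (SE 0.45, adjusted p 0.123) for hsa-miR-3074-5p.

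Whether the clusters moved unequally was tested directly, as the difference of the log2 fold changes of paired arms within a line. Over 4 pairs and the lines that list both arms there were 26 differences, and 10 had an adjusted p under 0.05 (Wald test, Benjamini-Hochberg over the 26). Between clusters the chromosome 19 arm was ahead in 6 and behind in 2 of them. The 6 include the miR-23, miR-27 and miR-24 pairs of HCT116 18/3 c2, and both of the 2 are of RPE1* 7/3. Pairs of 1 line share its libraries, so these counts are not of independent differences. For the miR-27 pair, hsa-miR-27a-5p minus hsa-miR-27b-5p was 1.56 in RPE1 5/3 12/3 (95% interval 0.88 to 2.25, adjusted p 7.31e-05), 1.15 in HCT116 18/3 c2 (0.77 to 1.52, adjusted p 3.79e-08) and 0.89 in HCT116 5/4 (0.25 to 1.54, adjusted p 0.0225). In RPE1* 7/3 it was -0.65 (-1.08 to -0.22, adjusted p 0.0159). The clusters thus differed in either direction, and in HCT116* 3/3 c11, HCT116* 8/3 c7 and RPE1* 21/3 the miR-27 difference was between -0.34 and 0.16 and did not pass the test.

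For the miR-24 pair RPE1* 7/3 was again the line with the lowest difference. The difference hsa-miR-24-2-5p minus hsa-miR-24-1-5p was 0.99 in HCT116 18/3 c2 (95% interval 0.66 to 1.32, adjusted p 6.40e-08), 0.42 in HCT116* 8/3 c7 (0.12 to 0.71, adjusted p 0.0225) and -1.09 in RPE1* 7/3 (-1.57 to -0.60, adjusted p 8.28e-05). At 0.88 in RPE1 5/3 12/3 and 0.65 in HCT116 5/4 it did not pass, with an adjusted p of 0.0789 in both. These calls turned on the errors being taken as independent, since with a correlation of 0.5 between the errors the adjusted p was 0.0103 and 0.0123. Of the miR-23 pair, hsa-miR-23a-5p minus hsa-miR-23b-5p was 1.03 in HCT116 18/3 c2 (0.27 to 1.80, adjusted p 0.0242). This difference rests on a mean of 5.18 for hsa-miR-23a-5p, whose standard error of 0.34 is below its counting error of 0.52, and with standard errors raised to the counting error the adjusted p was 0.113. In RPE1* 7/3 the difference was -0.94, with an adjusted p of 0.0789, or 0.0103 with a correlation of 0.5. With both means at 10 or more the pair could be compared in RPE1* 7/3 and RPE1* 21/3 only.

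The opposite strands of the MIR24-1 locus also had unequal listed fold changes in 2 lines. The difference hsa-miR-24-1-5p minus hsa-miR-3074-5p was -0.94 in HCT116 18/3 c2 (95% interval -1.65 to -0.23, adjusted p 0.0243) and 1.05 in RPE1* 7/3 (0.29 to 1.82, adjusted p 0.0225). Both are lines in which hsa-miR-24-1-5p itself was called. The mean of hsa-miR-3074-5p was 12.9 in HCT116 18/3 c2 and 26.7 in RPE1* 7/3, beside 341 and 120 for hsa-miR-24-1-5p. If fold changes of scarce arms were shrunken in these tables, the differences would include that, which was not tested. In RPE1 5/3 12/3 the difference was -1.19 (-2.33 to -0.04) and the adjusted p 0.0789, or 0.0103 with a correlation of 0.5 between the errors. With a t distribution on the residual degrees of freedom, 0 of the 26 differences pass.

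**Figure D3:**
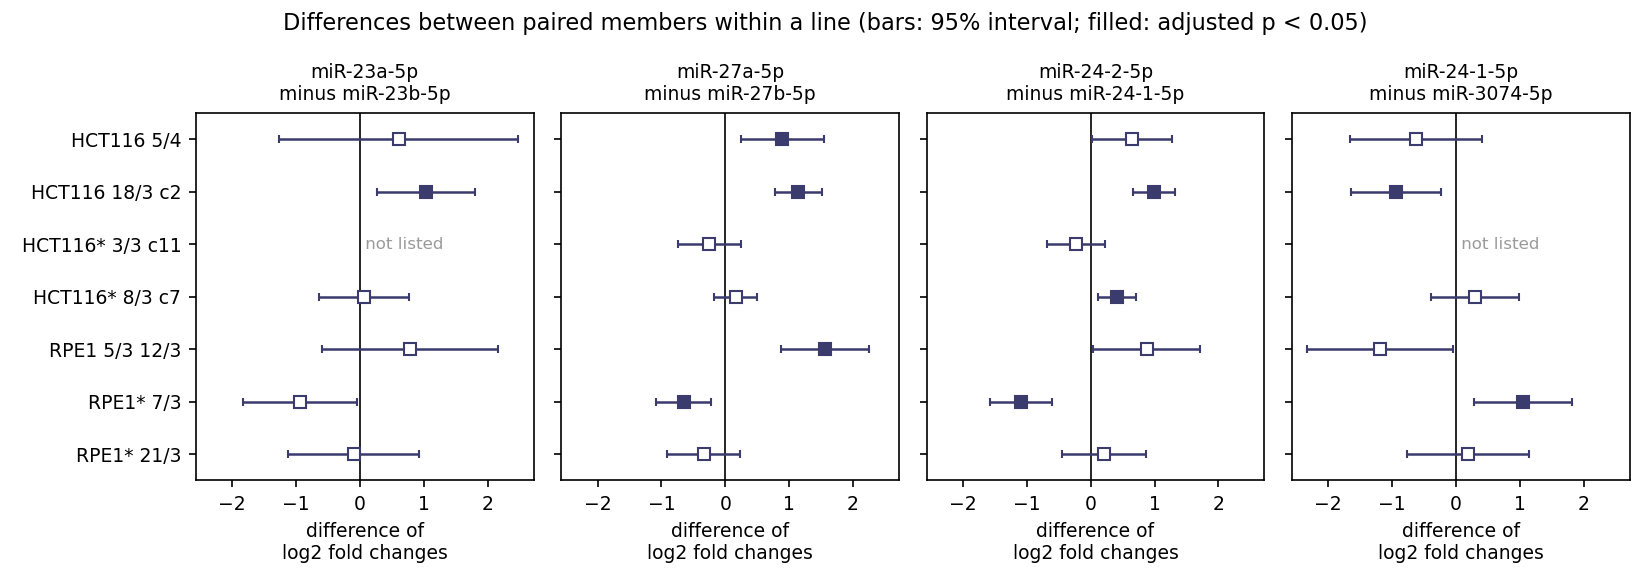
Difference of the log2 fold changes of paired arms within each line, with 95% intervals; filled squares have an adjusted p under 0.05. The miR-27 and miR-24 differences lie right of 0 in HCT116 18/3 c2, up to 1.15, and left of 0 in RPE1* 7/3, down to -1.09.

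The miRNAs that are encoded on chromosome 9 alone put the rise in RPE1* 7/3 next to its surroundings. In that line 11 such miRNAs were tested, 5 were called higher and 0 lower, 9 lay above 0, and their median log2 fold change was 0.57, beside -0.04 over all miRNAs tested. Without the members, 2 of 7 were called higher and the median was 0.41. The others called were hsa-miR-204-5p, an abundant miRNA of pigment epithelium, at 1.06 (SE 0.15, adjusted p 3.04e-11), and hsa-miR-126-5p, from an intron of EGFL7 and known from endothelium, at 1.06 (SE 0.34, adjusted p 0.0175). Not all moved up, since hsa-miR-31-5p stood at -0.24 (SE 0.12) and hsa-miR-3152-5p at -0.11 (SE 0.17). The 12 tested miRNAs of chromosome 19 had a median of 0.00 in this line, with 0 called higher and 1, hsa-miR-330-5p, lower.

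For the lower values in the other 2 lines, the rest of chromosome 9 gave a mixed picture. In HCT116 18/3 c2 the 3 members were the only lower calls among 12 chromosome 9 miRNAs, and the other 8 that are not members had a median of 0.13. In RPE1 5/3 12/3, 5 of 11 were lower and 2 higher, beside 13.5% lower and 16.9% higher of all tested miRNAs. Without the members, 2 of 7 were lower and 2 higher, with a median of -0.04, beside 0.07 over all miRNAs tested. Apart from the members the lower ones were hsa-let-7d-5p at -1.31 (SE 0.27) and hsa-miR-126-5p at -2.71 (SE 0.55), and the higher ones were hsa-miR-31-5p at 1.08 (SE 0.23) and hsa-miR-455-5p at 0.76 (SE 0.27). The plot of chromosome 9 and chromosome 19 miRNAs shows how the members sit within each list.

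**Figure D4:**
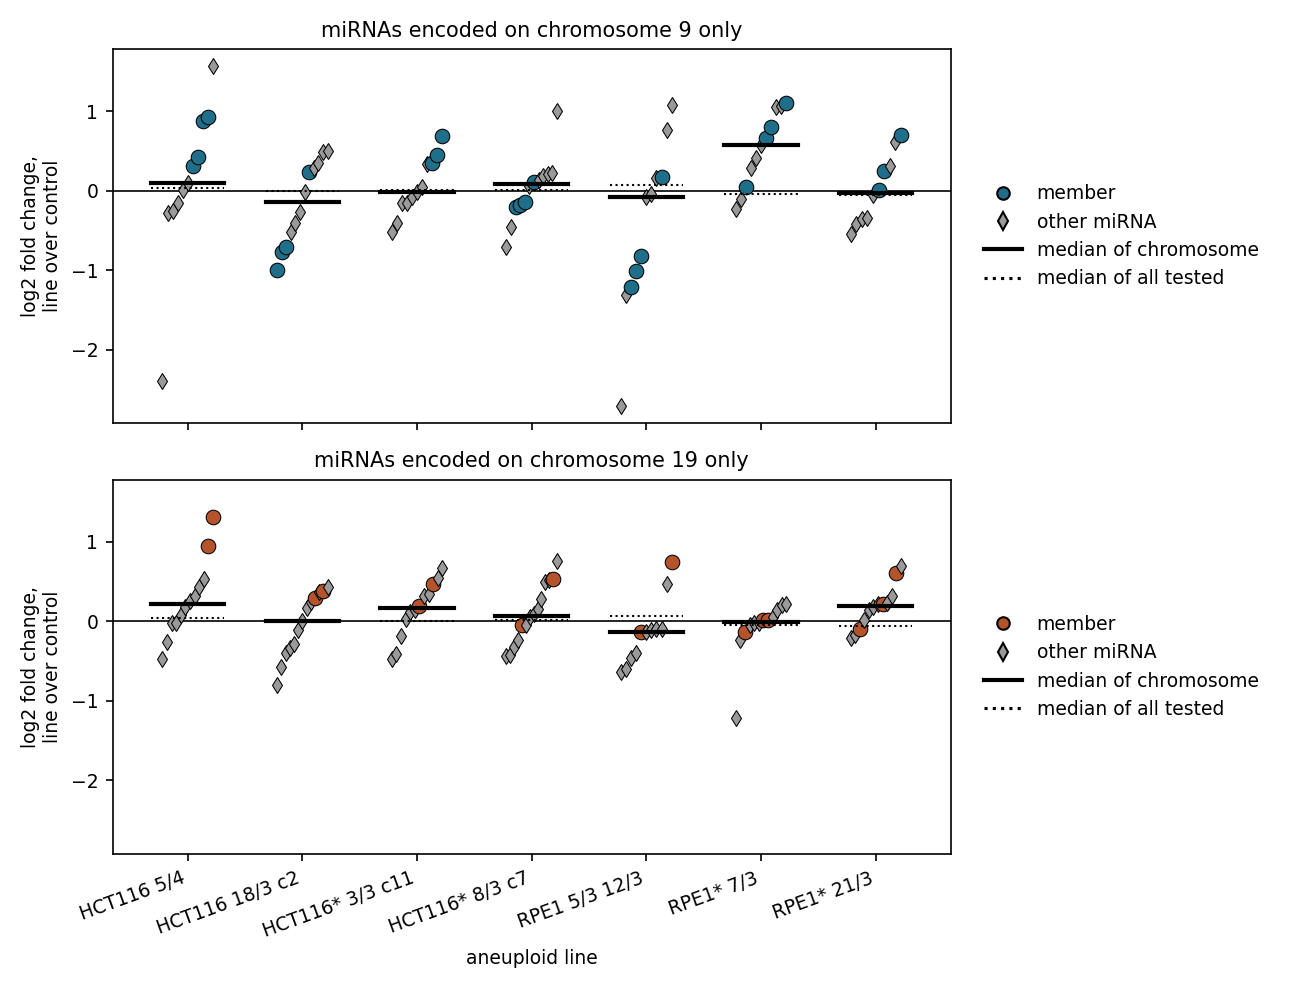
Log2 fold changes of the tested miRNAs encoded on chromosome 9 alone (top) or chromosome 19 alone (bottom) in each line; coloured circles are members, grey diamonds other miRNAs, solid bars the median of the chromosome and dotted bars the median of all tested miRNAs. In RPE1* 7/3 the chromosome 9 median is 0.57 and that of all tested miRNAs -0.04.

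Nearest to the chromosome 19 cluster are hsa-miR-181c-5p and hsa-miR-181d, whose hairpins lie on the opposite strand about 38.0 and 38.2 kb away. In HCT116 5/4, where the cluster was higher, hsa-miR-181c-5p stood at 0.07 (SE 0.28) and hsa-miR-181d at 0.26 (SE 0.25), and neither passed the test. The calls of hsa-miR-181d fell in other lines, at -0.80 in HCT116 18/3 c2 (SE 0.16, adjusted p 3.19e-06) and 0.66 in HCT116* 3/3 c11 (SE 0.20, adjusted p 0.0142). Those are lines in which hsa-miR-24-1-5p of chromosome 9 was called in the same direction, while the tested arms of its own chromosome 19 cluster were at 0.20 to 0.46.

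Around the chromosome 9 cluster, the let-7 hairpins MIRLET7A1, MIRLET7F1 and MIRLET7D, whose family is known to restrain growth genes, lie 906 to 909 kb away. Only hsa-let-7d-5p has this as its single locus. It fell with the cluster in RPE1 5/3 12/3, at -1.31 (adjusted p 2.79e-05), and was below the fold limit in HCT116 18/3 c2, at -0.52 (SE 0.11, adjusted p 2.38e-05). In RPE1* 7/3 it stood at 0.28 (SE 0.13, adjusted p 0.175). For hsa-let-7a-5p, with 3 loci, and hsa-let-7f-5p, with 2, the reads cannot be assigned to this one, and the range over the 7 lines was -0.28 to 0.71 and -0.33 to 0.34. The nearest listed miRNA, hsa-miR-2278 at 275 kb, was listed in 3 tables and tested in 0.

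The 3 abundant chromosome 9 arms ranked high in the likeness of their fold changes to one another across the 7 lines. The remaining chromosome 9 member, hsa-miR-3074-5p, did not reach a mean of 10 in every table and was left out. Among 172 other miRNAs with a mean of at least 10 in every table, the highest Pearson r with hsa-miR-27b-5p was that of hsa-miR-23b-5p (0.96), followed by hsa-miR-24-1-5p (0.94), and for hsa-miR-24-1-5p these were hsa-miR-27b-5p (0.94) and hsa-miR-23b-5p (0.86). For hsa-miR-23b-5p the second place went to hsa-miR-99b-5p (0.92), and hsa-miR-24-1-5p was at place 5. The chromosome 19 arms did not have each other in their first places. The 2 most like hsa-miR-27a-5p were hsa-let-7i-5p (0.95) and hsa-miR-659-5p (0.92), and those most like hsa-miR-24-2-5p were hsa-miR-499a-5p (0.93) and hsa-miR-185-5p (0.89), while r between hsa-miR-27a-5p and hsa-miR-24-2-5p was 0.43, place 53 of 172. Between clusters, r of hsa-miR-27a-5p was -0.09 with hsa-miR-23b-5p, -0.14 with hsa-miR-27b-5p and -0.29 with hsa-miR-24-1-5p. For hsa-miR-24-2-5p the same values were above 0, at 0.45, 0.35 and 0.28, the first of them higher than its r with hsa-miR-27a-5p. These are descriptions over 7 points, of which 3 share control libraries, and all values of a table share its size factors.

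The fold changes behind 1 of these likenesses were those of hsa-let-7i-5p, an abundant let-7 of chromosome 12. It stood at 1.60 in HCT116 5/4 (SE 0.16) and 1.04 in RPE1 5/3 12/3 (SE 0.25), the lines in which hsa-miR-27a-5p was called, and between -0.30 and 0.47 in the other 5. The gain of chromosome 12 is present in RPE1 5/3 12/3 and by the methods of the study in RPE1* 7/3, where hsa-let-7i-5p was at -0.30 (SE 0.15). These lines also differ in their other gains and in their controls, and the part of copy number was not tested.

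Parental lines were compared by a test that gives no call in this design. For each of the 5 members tested in all 7 tables, the 4 HCT116 lines were compared with the 3 RPE1 lines by an exact two-sided permutation test, for which 0.0571 is the smallest p, above the threshold of 0.05. The mean log2 fold change of hsa-miR-24-2-5p was 0.56 ± 0.28 (SD, n = 4) in HCT116 lines and 0.03 ± 0.18 (SD, n = 3) in RPE1 lines, a difference of 0.53 with an exact permutation p of 0.0571 (adjusted p 0.286). All 4 HCT116 values, 0.29 to 0.95, lay above all 3 RPE1 values, -0.14 to 0.22, though 3 of the 4 share control libraries. The remaining 4 members had differences between -0.07 and 0.24 and an exact permutation p of 0.686 to 0.971. For the chromosome 9 arms both groups held lines on either side of 0, with SDs of 0.58 to 1.14.

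Lines of the same parental cells on separate control libraries were also set against each other, a comparison added after the values were seen. Of 34 differences between such lines, 17 had an adjusted p under 0.05 (Wald test of the difference, Benjamini-Hochberg over the 34). The widest was hsa-miR-24-1-5p in RPE1 5/3 12/3 minus RPE1* 7/3, at -2.11 (SE 0.41, adjusted p 5.84e-06), and the same lines differed by -2.02 (SE 0.47) for hsa-miR-23b-5p and -1.48 (SE 0.32) for hsa-miR-27b-5p. Among HCT116 lines, hsa-miR-27a-5p in HCT116 5/4 lay 0.94 to 1.36 above the other 3 lines, and each of these differences passed. Tables were fitted separately, and the sources used here do not state whether fold changes were shrunken. Standard errors were small for the scarce hsa-miR-2278, at 0.25 with a mean of 1.17 in RPE1* 7/3. They were 0.32 with a mean of 3.03 in HCT116 18/3 c2 and 0.31 with 3.70 in HCT116* 8/3 c7. In RPE1* 7/3 the more abundant hsa-miR-23a-5p, with a mean of 16.8, had a larger one of 0.38. With shrinkage, sizes would be hard to compare between tables and between scarce and abundant arms of a table, which was not tested. In 4 of the 47 member values, all of hsa-miR-23a-5p or hsa-miR-3074-5p, the standard error was below what counting error alone would give.

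The labelled cells were set beside 9 marker arms, which did not all follow the labels. The epithelial arms hsa-miR-200c-5p and hsa-miR-141-5p were listed in all 4 HCT116 tables, at 12.6 to 18.2 and 64.5 to 128 CPM, and in 0 RPE1 tables. In contrast hsa-miR-204-5p was at 379.5 to 1450 CPM in the RPE1 tables and 3.3 to 4.5 in the HCT116 tables. Its relative hsa-miR-211-5p was listed in 2 RPE1 tables, at 0.556 to 1.98 CPM, and in 1 HCT116 table, at 0.301. The intestinal arm hsa-miR-192-5p was at 281 to 586 CPM in HCT116 and 166 to 242 in RPE1 tables, whereas the ranges of hsa-miR-194-5p, 16.3 to 139 and 3.93 to 24.5, overlapped. Of the arms taken as mesenchymal, hsa-miR-100-5p was higher in RPE1 tables (299094 to 421390 CPM) than in HCT116 tables (195932 to 266690). The ranges of hsa-miR-143-5p overlapped, 0.829 to 12.6 CPM in RPE1 tables and 0.581 to 1.69 in 3 HCT116 tables. The order was opposite for hsa-miR-145-5p, with 7.98 to 100.3 CPM in RPE1 tables and 144 to 265 in HCT116 tables. The 3 tables on HCT116* give that control 3 times, and the control levels worked out for the 5 members they all list differed by no more than 1.23-fold between tables. The depth of single libraries is not given by these tables, and the standard errors carry the precision. The methods of the study describe the 3 libraries of a group as biological replicates. The p-values set each difference against the spread between such libraries, estimated by a fit that shares it over miRNAs. Each group is of a single line, so no p-value covers the spread between independent clones.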

How the data were processed

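The series holds 36 small RNA libraries, sequenced as single reads. The authors removed adapters with cutadapt, mapped to hg19 and took counts of miRBase miRNAs from mirdeep2, line and control together, and fitted DESeq2 (version not given in the sources used here), with the paired replicate number as a term for RPE1* 21/3, for HCT116 5/4 and also for RPE1 5/3 12/3. The tables hold the authors' own comparisons and no values of single libraries. The deposited mean is a signal, the average over 6 libraries of counts scaled by size factors. The deposited log2 fold change sets line over control and has a standard error, and the deposited p-value is that of a Wald test. Those log2 fold changes and standard errors were used here as the authors' values. The p-values were recomputed from their ratio and adjusted by Benjamini-Hochberg over all miRNAs of a table, and the largest relative difference from the listed adjusted p-value was 0.441%. Levels of line and control were derived from mean and fold change.

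Differences between arms or lines used the Wald test with both standard errors, taken as independent, with a correlation of 0.5 as an alternative. Hairpins were placed on GRCh37 by sequence match, host genes come from GENCODE on GRCh37, and mature sequences, found for all 7 members, from RefSeq (GRCh38.p14). MIR24-1 and MIR24-2 were placed by the match alone. Of 509 names, 24 had loci on several chromosomes and 4 were unmatched. Besides the members, the miRNAs named are listed miRNAs within 1 Mb of a cluster, the 2 most like each member tested in all tables, and those encoded on chromosome 9 or 19 alone. Cell type markers came from general knowledge. The members and lists were chosen with earlier results of these data known. Scripts were tested on simulated data. Tests used scipy 1.17.1 and pandas 2.3.3 under Python 3.11.15, with numpy 2.4.6, and plots matplotlib 3.10.9. The alternatives are given after the report.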

Additional observations from a re-analysis of the deposited data

Results flagged for a closer look

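The values below are differences between the log2 fold changes of lines from the same parental cells on separate control libraries, first line minus second, and each had an adjusted p under 0.05 (Wald test, 17 of 34 differences). HCT116 5/4 minus HCT116 18/3 c2 was 1.88 for hsa-miR-23b-5p, 1.19 for hsa-miR-27b-5p, 1.01 for hsa-miR-24-1-5p, 0.94 for hsa-miR-27a-5p and 0.66 for hsa-miR-24-2-5p. Against HCT116* 3/3 c11 the difference for hsa-miR-27a-5p was 1.12. Against HCT116* 8/3 c7 it was 1.36 for hsa-miR-27a-5p and 0.43 for hsa-miR-24-2-5p.

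RPE1 5/3 12/3 minus RPE1* 7/3 was -2.11 for hsa-miR-24-1-5p, -2.02 for hsa-miR-23b-5p, -1.48 for hsa-miR-27b-5p and 0.73 for hsa-miR-27a-5p. RPE1 5/3 12/3 minus RPE1* 21/3 was -1.92 for hsa-miR-23b-5p, -1.06 for hsa-miR-27b-5p, -1.02 for hsa-miR-24-1-5p and 0.84 for hsa-miR-27a-5p. RPE1* 7/3 minus RPE1* 21/3 was 1.09 for hsa-miR-24-1-5p. HCT116 5/4 was compared on HCT116 and the other HCT116 lines on HCT116*, and RPE1 5/3 12/3 on RPE1 and the other RPE1 lines on RPE1*, so that H2B-GFP differs between the controls in every difference but RPE1* 7/3 minus RPE1* 21/3. The term for the replicate number differs in every one but RPE1 5/3 12/3 minus RPE1* 21/3. Between HCT116 and HCT116* the source of the stock may differ as well. None of these can be told apart from the gained chromosomes where they differ.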

How the results depend on the processing

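The number of member calls depended most on the form of the test. With a t distribution on the residual degrees of freedom 0 members were called in HCT116 5/4, HCT116 18/3 c2, HCT116* 3/3 c11, RPE1 5/3 12/3 and RPE1* 7/3, 0 in all, and 0 arm differences passed. Over all tested miRNAs it left 0 to 14 calls per line, where 20 to 72 stood in the report's test. The authors' fit shares its estimate of the spread over miRNAs, which a t distribution on these degrees of freedom leaves out. Tested against an absolute log2 fold change of 0.6, 1 member was called in HCT116 5/4 and in all, and 0 in HCT116 18/3 c2, HCT116* 3/3 c11, RPE1 5/3 12/3 and RPE1* 7/3. Without the fold limit 5 were called in HCT116 18/3 c2, 2 in HCT116* 3/3 c11 and 1 in HCT116* 8/3 c7. With a mean of at least 100, 2 were called in RPE1 5/3 12/3. No other limit on the mean, adjustment or centring moved a count of member calls by over 1.5 times.

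With the 3 lines on HCT116* averaged to 1, the HCT116 minus RPE1 difference changed sign for hsa-miR-23b-5p (0.21) and hsa-miR-27b-5p (0.091), where the smallest p is 0.2. The log2 ratio of median levels, RPE1 over HCT116 tables, changed sign relative to the median miRNA for hsa-miR-24-2-5p (from -0.52 to 0.67) and hsa-miR-27b-5p (from -0.28 to 0.50), and moved to 1.50 for hsa-miR-27a-5p (from 0.66) and -1.46 for hsa-miR-24-1-5p (from -2.26). The cause was not tested. Of the arm differences, 14 passed with a correlation of 0.5 between errors, 11 with adjustment within each line and 9 with standard errors raised to the counting error, an alternative chosen after seeing the data, where 10 passed in the report. No paired analysis was possible because the tables hold no values of single libraries, beyond the replicate number already in the authors' fit of 3 of the 7 comparisons, and for the same reason no library could be left out.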
